A study of Mus musculus with 2 samples.

Results

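The FGF signalling genes of the fetal mouse mandible were compared between a wild-type sample and a sample lacking the muscle transcription factors Myf5 and MyoD. The genes were chosen by symbol from the annotation of the array's probe sets. They comprise every numbered Fgf and Fgfr gene, Fgfrl1, Spry1 to Spry4, Spred1, Spred2, Dusp6, Etv4 and Etv5. This rule gave 36 genes with 38 probe sets, out of 19938 genes with a probe set of their own. The rule itself used no measured value, but the members were chosen with earlier results of these data known. The question of the series is the role of skeletal muscle in the growth of the lower jaw. The wild-type sample was an E18.5 (embryonic day) mandible of the BALB/c background, and the other an E18.5 mandible of that background null at both Myf5 and MyoD (Myf5-/-:MyoD-/-). Total RNA of each whole mandible sample was hybridised to 1 Affymetrix array, so each genotype has 1 array, no difference has a replicate check and no p-values are given. The numbers of embryos pooled are not given in the sources used here. Signals of sex-linked genes differed between the arrays, as given with Fgf13 below, and the part of sex in any difference was not tested.

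Fibroblast growth factors (FGFs) are secreted ligands that bind receptor tyrosine kinases with heparan sulfate as a cofactor, and the receptors signal mainly through the RAS-ERK cascade. ERK signalling induces the ETS factors Etv4 and Etv5 together with its own inhibitors, the Sprouty and Spred proteins and the ERK phosphatase Dusp6, so these genes are widely used as readouts of the pathway. In the jaw, Fgf18 and Fgfr3 act in cartilage and bone, mesenchymal Fgf10 and Fgf7 act on the Fgfr2 of gland and tooth epithelium, and Fgf6 and Fgfr4 are known from skeletal muscle.

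The deposited values are log2 signals, and differences are given as double knockout minus wild type. Where a gene has a pair of values, the wild type comes first. Signals below each array's median over the probe sets of single genes, 6.20 for wild type and 6.21 for the double knockout, were raised to that floor. A gene counted as measured when at least 1 array was above the floor. Where 1 array was at the floor, the difference is a bound, written as "at least". The muscle marker list showed the genotypes apart: all 8 markers were lower, between -5.99 and -1.49. Of the 8, 7 were below the floor in the double knockout, so their differences are bounds and their direction was fixed. The summed linear signal of the 8 came to 20870 for wild type and 328.7 for the double knockout. Markers of salivary gland were higher in 7 of 7 genes (1.70 to 4.12), those of tooth in 6 of 6 (0.15 to 0.90), those of osteoblasts in all 5 measured (0.13 to 0.58), and those of epithelium in 7 of 8 (-0.15 to 1.30). Of 5 measured cartilage markers 4 were higher (-0.32 to 0.76), and of 3 measured tendon markers 2 were lower (-2.49 to 0.10). Higher were 2 of 5 mesenchyme markers (-0.27 to 0.31), 2 of 4 endothelial markers (-0.49 to 0.23) and all 3 measured markers of neurons and Schwann cells (0.43 to 0.47). Bounds too were 1 salivary gland marker and 1 marker of neurons and Schwann cells, measured through the double-knockout array alone. The marker lists were chosen with earlier results of these data known, so their directions are no independent check of cell content. Of the targeted genes, Myf5 gave 6.31 and 4.95 and Myod1 7.14 and 6.49 on the wild-type and double-knockout arrays. The deleted parts, against which these probe sets could be placed, are not given in the sources used here. The median difference over all 10336 measured genes was 0.098, and 66.9% of them were higher in the double knockout. In whole tissue, fewer cells of a type and less RNA per cell cannot be told apart.

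Of the 36 FGF genes, 22 were measured and 14 lay below the floor in both samples. The measured set held 10 of 22 numbered Fgf genes, all 5 receptors, 6 of 7 feedback inhibitors and 1 of 2 ETS factors. The numbered Fgf genes are called ligand genes here, although 4 of them, Fgf11 to Fgf14, encode intracellular proteins. Of these 4, 2 were measured, Fgf11 and Fgf13, and both were lower. Among the 22, 10 were higher and 12 lower in the double knockout, 2 of the 12 being bounds. The 10 higher are 45.5%, against 66.9% of all measured genes, the share to set beside the group counts below. The median difference of the 22 was -0.09. After centring, 9 were higher and the median was -0.19. Centring here means that the median of all measured genes was shifted to 0. At least 1.5-fold lower were 3 genes, Fgfr4, Fgfrl1 and Fgf18, which is 13.6% of those measured, against 5.11% of all measured genes. At least 1.5-fold higher was 1 gene, Fgf10, which is 4.55%, against 3.06% of all measured genes. At least 2-fold apart were Fgfr4 and Fgfrl1, or 9.09%, against 3.25% of all measured genes in either direction. Fgf18 also passed 2-fold after centring (-1.05), and Fgf6 with a lower floor or none. None of the 22 was shown to be 3-fold apart, against 1.72% of all measured genes, but the bounds of Fgfr4 and Fgf6 do not place these genes under 3-fold. These shares rest on 1 to 3 genes each.

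**Figure D1:**
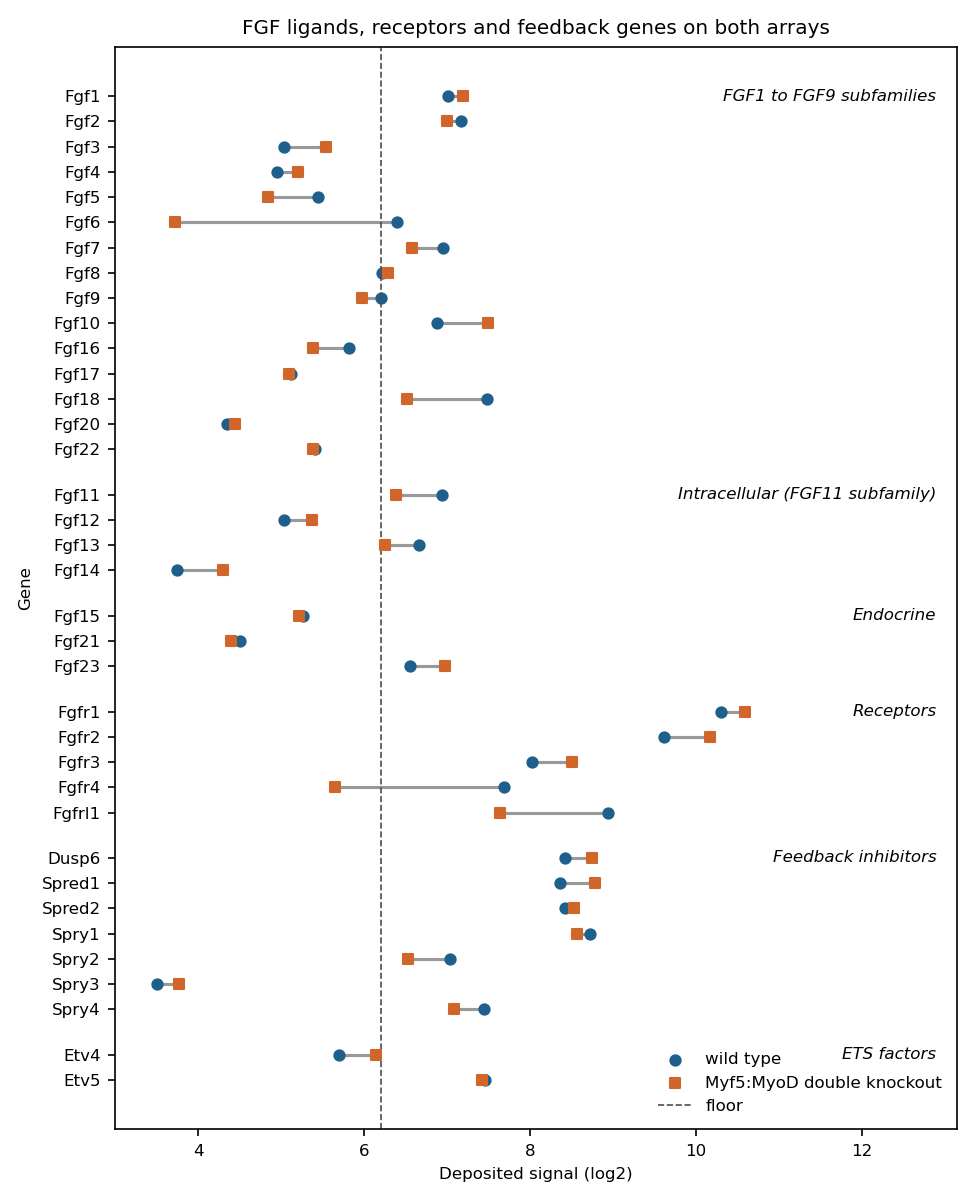
Deposited log2 signal of each of the 36 genes for wild type (circles) and double knockout (squares), grouped by role, with the floor as a dashed line. Fgf6 and Fgfr4 cross the floor from 6.40 to 3.72 and from 7.69 to 5.65, while Fgfrl1 drops from 8.94 to 7.64 above it. Signals of different genes come from different probes and are not comparable in level.

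Myf5 and MyoD bind the E-box, CANNTG, in the control regions of muscle genes. The 250 bases before the start site are therefore shown for the 4 genes that were at least 1.5-fold apart and for Fgf6, the muscle ligand, from RefSeq sequence of GRCm38.p6. The sequences run 5′ to 3′ on the strand of the gene, with every CANNTG in capitals; the motif reads the same on both strands, and overlapping matches were allowed.
Fgf6 (chr6:127015292-127015541, plus strand): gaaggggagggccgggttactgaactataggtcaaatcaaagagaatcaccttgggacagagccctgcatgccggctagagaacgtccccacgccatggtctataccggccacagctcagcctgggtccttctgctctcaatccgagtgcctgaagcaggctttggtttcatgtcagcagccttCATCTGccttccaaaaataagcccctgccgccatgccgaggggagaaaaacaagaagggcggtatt
Fgfr4 (chr13:55152568-55152817, plus strand): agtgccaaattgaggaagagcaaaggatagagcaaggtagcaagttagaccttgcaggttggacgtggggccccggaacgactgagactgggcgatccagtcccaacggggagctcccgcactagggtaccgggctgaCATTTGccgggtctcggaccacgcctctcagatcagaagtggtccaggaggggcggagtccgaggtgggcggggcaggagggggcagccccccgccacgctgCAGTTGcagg
Fgfrl1 (chr5:108693979-108694228, plus strand): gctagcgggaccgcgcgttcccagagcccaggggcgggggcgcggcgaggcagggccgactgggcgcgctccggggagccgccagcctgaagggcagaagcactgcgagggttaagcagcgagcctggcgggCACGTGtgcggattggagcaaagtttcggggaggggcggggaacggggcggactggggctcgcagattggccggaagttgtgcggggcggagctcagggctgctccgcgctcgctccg
Fgf18 (chr11:33147401-33147650, minus strand): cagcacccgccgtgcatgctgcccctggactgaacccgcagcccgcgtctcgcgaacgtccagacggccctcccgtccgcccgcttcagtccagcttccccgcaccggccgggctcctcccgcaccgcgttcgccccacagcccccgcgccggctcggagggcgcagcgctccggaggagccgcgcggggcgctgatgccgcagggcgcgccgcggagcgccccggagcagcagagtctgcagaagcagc
Fgf10 (chr13:118714449-118714698, plus strand): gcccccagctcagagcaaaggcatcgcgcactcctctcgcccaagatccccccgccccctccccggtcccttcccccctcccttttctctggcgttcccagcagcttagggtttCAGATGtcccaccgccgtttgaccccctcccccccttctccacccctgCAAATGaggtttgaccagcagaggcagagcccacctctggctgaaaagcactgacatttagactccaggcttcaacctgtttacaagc
Fgf6 held 1 E-box, CATCTG, that began 66 bases before the start site. Fgfr4 held 2, CATTTG at 112 bases and CAGTTG at 10 bases. Fgfrl1 held 1, CACGTG at 118 bases, Fgf18 held 0, and the higher gene Fgf10 held 2, CAGATG at 136 bases and CAAATG at 88 bases. At least 1 E-box was present in 66.2% of 32851 promoter windows of this length and at least 2 in 31.8%, so these matches are common and do not separate the lower genes from Fgf10. The E-box CAGCTG was in none of the 5 windows and in 13.0% of all windows. Of the 36 FGF genes 26 had promoter entries, 34 windows in all, of which 20 held an E-box. A match is a description of letters and no evidence of binding.

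The receptors were split in direction. Fgfr4, a receptor known in mouse from developing and regenerating skeletal muscle, gave 7.69 in wild type and 5.65 without Myf5 and MyoD. The second value is below the floor, so the difference is a bound of at least 1.49 log2 units, or at least 2.80-fold lower; the deposited values were 4.13-fold apart. Fgfrl1, a receptor-like protein without a kinase domain that mice need to form a normal diaphragm muscle, gave 8.94 and 7.64. Both values were above the floor, and the difference was -1.30, or 2.46-fold lower. Among the 9388 genes above the floor on both arrays, Fgfrl1 was the 87th lowest by difference. It had been grouped with the skeletal genes, from its known expression in cartilage and bone, and the other skeletal receptors ran the other way. The part of muscle, cartilage or bone cells in the difference of Fgfrl1 was not tested.

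Fgfr3, which restrains the growth of cartilage, gave 8.02 and 8.51, a difference of 0.49 or 1.40-fold higher. Fgfr1, the receptor of mesenchyme and osteoblast lineages, gave 10.31 and 10.59, a difference of 0.28. Fgfr2, whose splice forms serve epithelium and mesenchyme, gave 9.62 and 10.17, a difference of 0.55 or 1.47-fold higher. These 3 kinase receptors stayed higher after centring, at 0.39, 0.19 and 0.46, and none reached 1.5-fold. One probe set stands for each receptor, so splice forms are not separated. The part of the higher cartilage, osteoblast and epithelial markers in these differences was not tested.

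The muscle-linked ligand Fgf6, known in mouse for its restriction to the skeletal muscle lineage, gave 6.40 in wild type and 3.72 without Myf5 and MyoD. Because the wild-type value lay just above the floor, the difference is bounded only at 0.20 log2 units or more, at least 1.15-fold lower, although the deposited values were 6.41-fold apart. Fgf5, a ligand known for ending the growth phase of hair and also grouped with muscle, was below the floor on both arrays (5.44 and 4.84). Fgf13, an intracellular FGF-like protein that binds sodium channels in neurons and muscle, gave 6.66 and 6.25, a difference of -0.41 or 1.33-fold lower. Fgf13 is X-linked. On these arrays the X-linked Xist gave 10.87 and 10.22, and the Y-linked Eif2s3y gave 2.38 and 6.55. The part of sex in the difference of Fgf13, or of any other member, was not tested. Fgf6 and Fgfr4 counted as measured through the wild-type array alone, which fixes their direction, so Fgf13 is the only gene of the muscle-linked group whose direction was free. The skeletal muscle markers were lower in 8 of 8 genes beside these values, and 7 of the 8 also counted as measured through the wild-type array alone. The part of the muscle markers in these differences was not tested.

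Fgf18 had the largest difference among the ligands above the floor on both arrays. It promotes bone formation and restrains cartilage growth in mouse, and it gave 7.48 and 6.52. No E-box lay in its printed upstream window, while 66.2% of all such windows held at least 1, and this is no evidence about binding. The difference of -0.95, or 1.94-fold lower, ranked as the 138th lowest of the 9388 genes above the floor on both arrays. Beside this value, all 5 measured osteoblast markers and 4 of 5 cartilage markers were higher, and 2 of 3 measured tendon markers were lower. Their part in the difference of Fgf18 was not tested. Fgf23, the bone hormone that lowers blood phosphate, was in the other direction, at 6.56 and 6.98, a difference of 0.42 or 1.34-fold higher. Fgf2, a widely made ligand stored in matrix, gave 7.17 and 7.00, a difference of -0.17. Fgf9, which acts in early cartilage and in tooth, was below the floor on both arrays at 6.20 and 5.98, with its wild-type value just under the limit. The 6 measured genes of the skeletal group were 3 higher and 3 lower, with a median of 0.06 (-0.04 after centring).

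Ligands of epithelium, glands and teeth were mixed. Fgf10, without which mice form no salivary glands, gave 6.88 and 7.50, a difference of 0.62 or 1.54-fold higher and the 234th highest of the 9388. It came to 0.52, under 1.5-fold, after centring. Fgf7, its closest relative in the same subfamily, gave 6.95 and 6.58, a difference of -0.37 or 1.29-fold lower. So these 2 ligands of the same epithelial receptor form of Fgfr2 lay on opposite sides of 0, and stayed so under quantile normalisation (0.59 and -0.39). Fgf8, an early patterning signal of the jaw, was near the floor at 6.22 and 6.29, a difference of 0.07 that turned to -0.03 after centring. With Fgfr2 included, 3 of the 4 measured genes of this group were higher as deposited, with a median of 0.31, and 2 of 4 after that setting. Salivary gland markers were higher in 7 of 7 genes beside these values, and their part was not tested.

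Of the remaining ligand genes, Fgf1 and Fgf11 were measured. Fgf1, a ligand that binds all FGF receptors, gave 7.01 and 7.19, a difference of 0.19. Fgf11, an intracellular relative of Fgf13, gave 6.94 and 6.38, a difference of -0.55 or 1.47-fold lower. The other 10 ligand genes not yet given were below the floor on both arrays. Among those known from tooth germs, Fgf3 gave 5.04 and 5.54, Fgf4 gave 4.95 and 5.20, and Fgf20 gave 4.35 and 4.45. Fgf22, a relative of Fgf10 known from synapses, gave 5.41 and 5.38. Fgf16, known from heart, gave 5.82 and 5.39, and Fgf17, a relative of Fgf8 and Fgf18, gave 5.12 and 5.09. None of these values separates the genotypes, because all lie under the floor. The neuronal intracellular genes Fgf12 and Fgf14 gave 5.04 and 5.37, and 3.75 and 4.30. The endocrine ligands Fgf15, a gut hormone of bile acid control, and Fgf21, a liver hormone, gave 5.27 and 5.22, and 4.50 and 4.40. A gene below the floor is not shown to be silent in the mandible.

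**Figure D2:**
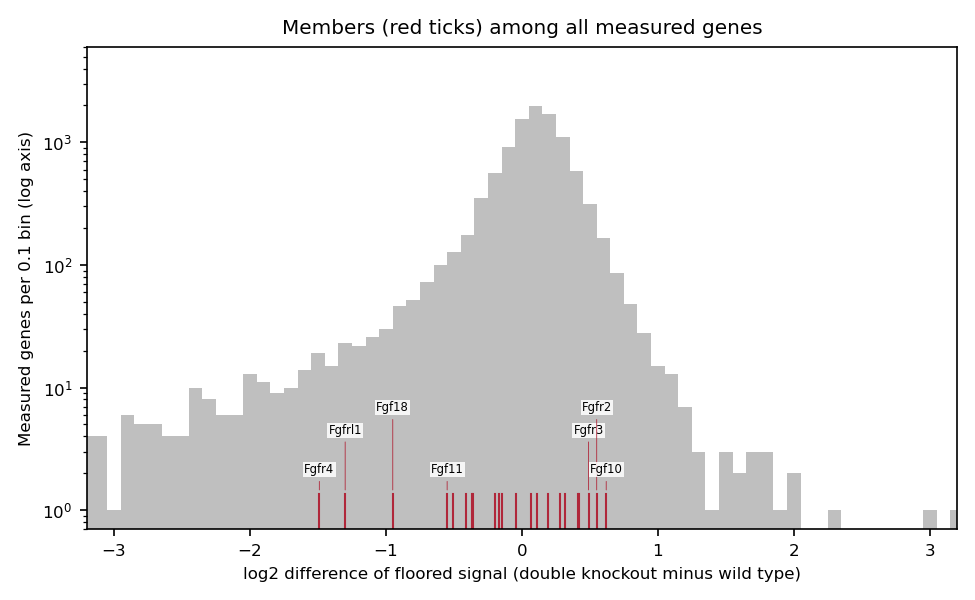
Histogram of the log2 differences (double knockout minus wild type) of the 10336 measured genes, on a log count axis, with the 22 measured FGF genes as red ticks. Fgfr4 (a bound at -1.49), Fgfrl1 (-1.30) and Fgf18 (-0.95) lie in the long lower tail, and Fgf10 (0.62) is the highest of the 22. The axis is limited to 3.2 log2 units on each side, which leaves out the most extreme genes.

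The feedback inhibitors and ETS factors showed no common direction. Of 9 such genes 7 were measured, 3 higher and 4 lower, with a median of -0.04 and none at least 1.5-fold apart. Dusp6, the phosphatase that inactivates ERK, gave 8.42 and 8.75, a difference of 0.32. Spred1, which blocks RAF activation, gave 8.36 and 8.78, a difference of 0.41 or 1.33-fold higher. Spred2, its relative, differed by 0.11 at its brighter probe set and by -0.10 at the other. The Sproutys ran lower: Spry2 gave 7.04 and 6.53, a difference of -0.51 or 1.42-fold lower. Spry4 gave 7.45 and 7.09, a difference of -0.36, and Spry1 gave 8.72 and 8.57, a difference of -0.15. Thus the 3 measured Sprouty genes were lower and Dusp6 and Spred1 higher, under each scaling tried. Spry3 was below the floor (3.51 and 3.77).

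Etv5 was nearly equal on both arrays, at 7.46 and 7.42, with a difference of -0.04 at its brighter probe set and -0.15 at the other. Etv4 gave 5.70 and 6.15, both below the floor, so its higher deposited value in the double knockout is no measured difference. With 1 array per genotype, the only measurable spread was between different probe sets for a gene. For 528 genes that had more than 1 probe set above the floor throughout, the differences of the 2 brightest had a median absolute gap of 0.06 and an SD of 0.22 (0.17 without the gene with the widest gap). This SD leaves out variation between animals and hybridisations. The differences of Etv5, Spry1, Fgf1, Fgf2, Fgf8 and Spred2 were smaller than it.

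**Figure D3:**
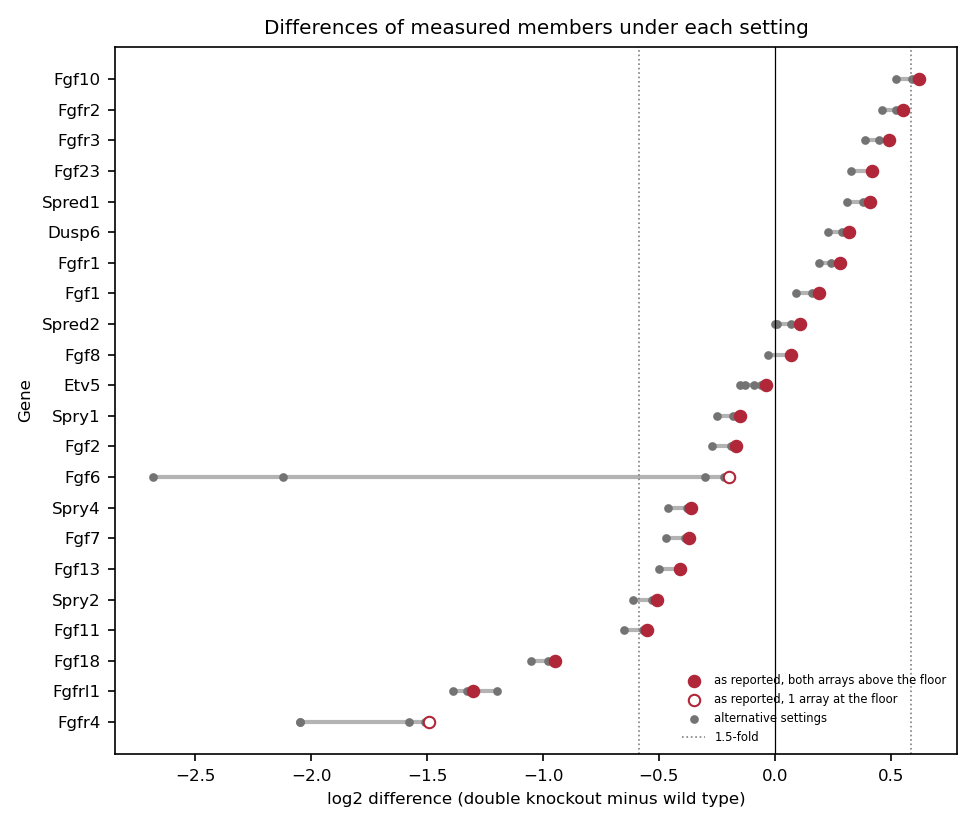
Log2 difference of each of the 22 measured FGF genes as reported (large circles, open where 1 array is at the floor) and under the alternative settings (small points joined by a bar), with dotted lines at 1.5-fold. Fgf6 and Fgfr4 alone moved by more than 0.22 log2 units from the reported value, reaching -2.68 and -2.05 when the floor is taken away, and Fgf8 crosses 0.

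The rest of the pathway differed little. The 4 lists of other pathway genes held 63 genes, of which 55 had a probe set of their own, 45 were measured and 8 were not analysed here. None of the 45 was at least 1.5-fold apart in either direction, against 3.06% of all measured genes higher and 5.11% lower, and their median was 0.16. As deposited, 66.9% of all measured genes were higher, which is the share to set beside the counts that follow. In the list of heparan sulfate proteins and enzymes, 15 of 19 measured genes were higher as deposited and 13 after centring, with a range of -0.26 to 0.46. The brightest, the glypican Gpc3 and perlecan (Hspg2), differed by -0.09 and -0.07. In the list from receptor adaptors to ERK kinases, 7 of 14 were higher, and the brightest, the phosphatase Ptpn11 and the adaptor Gab1, differed by -0.30 and 0.25. Klotho (Kl) and Klb, the coreceptors of endocrine FGFs, were below the floor, while the brightest cofactors, the membrane proteins Flrt2 and Flrt3, both differed by 0.39. Among the 13 other ERK outputs, 5 were below the floor. All 8 measured were higher as deposited and 6 of 8 after centring, between 0.01 and 0.39. Of the 8, 1 was a bound measured through the double-knockout array alone, which fixes its direction as deposited. The brightest, Dusp7 and the cyclin Ccnd1, differed by 0.30 and 0.16.

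**Figure D4:**
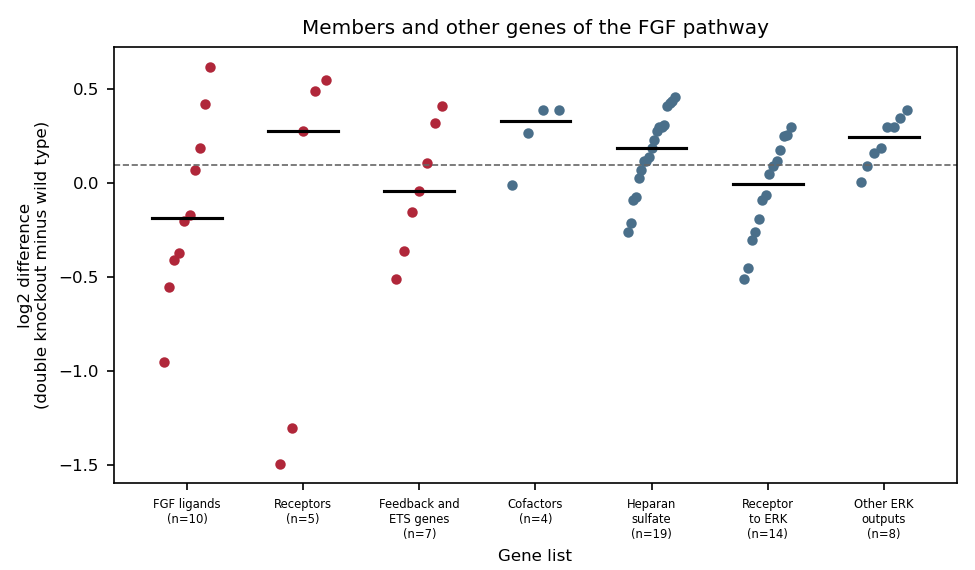
Log2 difference (double knockout minus wild type) of each measured gene in 3 groups of FGF genes (red) and 4 lists of other pathway genes (blue), with the median of each list as a bar and the median of all measured genes (0.10) as a dashed line. The receptors spread widest, from -1.49 to 0.55, and the other pathway lists stay between -0.51 and 0.46. The group labelled as ligands includes the intracellular Fgf11 and Fgf13.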

How the data were processed

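The authors deposited a table of log2 signals for 35557 probe sets, with 1 column per array. Total RNA (6 µg per array) was labelled as biotinylated cRNA, per the labels' protocols. MAS5 is the tool named, without a version, per the submitters' processing notes. It usually gives linear values; the step to logarithms, the background correction and the normalisation between arrays are not given in the sources used here. Base 2 was inferred from the range of the values. The arrays were compared as deposited, since the ratio of their 2% trimmed linear means was 1.02, inside the limit of 5%; arrays made equal by the authors would also meet it.

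Gene names came from GEO's platform annotation and were checked by Entrez identifier against RefSeq. Of the probe sets 21789 named 1 gene and were used, 1621 named several and 12147 had no entry. A gene was given by the brightest of its probe sets (mean of the linear signals). Every member is named; of the pathway lists, genes past 1.5-fold and the 2 brightest are named, except that Kl, Klb, Map2k1 and Ier2 were chosen after their values were seen. Members and lists were chosen with earlier results of these data known. The tables were made in Python 3.11.15 with pandas 2.3.3, and the calculation was tested on simulated data. The number of arrays limits the precision. Alternatives were centring on the median difference, quantile normalisation, no floor or one at percentile 25 or 75, other choices of probe set and a 3-fold threshold, with 1 more floor chosen after seeing the data.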

Additional observations from a re-analysis of the deposited data

How the results depend on the processing

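With the median difference of all measured genes set to 0, 0 members were at least 1.5-fold higher and 5 lower, since Fgf11 (-0.65) and Spry2 (-0.61) joined Fgfr4, Fgfrl1 and Fgf18, and 1 other pathway gene, Map2k1, was 1.5-fold apart. With a floor at percentile 25, 35 members were measured and 5 were at least 1.5-fold lower, Fgf5 and Fgf6 (-2.12) among them, and 1 pathway gene, Ier2, was 1.5-fold apart. With no floor 5 members were lower, and 2 pathway genes, Ier2 and Kl, were 1.5-fold apart. With a floor at percentile 75, 8 members were measured: 0 were 1.5-fold higher, 1 was 1.5-fold lower and 2-fold apart (Fgfrl1, -1.20), and the median was 0.30. The count at least 2-fold apart was 3 after centring, with a floor at percentile 25 and with no floor, against 2 as reported. At a threshold of 3-fold, 0 members were shown to be apart; the bounds of Fgfr4 and Fgf6 leave their side of it unknown, and both pass it with no floor (-2.05 and -2.68). Of 162 recomputed differences of single members, 158 moved by less than the SD of 0.22 between probe sets of a gene and 4 by more, those of Fgf6 and Fgfr4 with a lower floor or none. Quantile normalisation, the other choices of probe set and the floor at the median of all annotated probe sets left every count above within 1.5 times its reported value. With the last of these 23 members were measured, Fgf9 being added. No paired analysis was possible because each genotype has 1 array. The number of arrays, the unknown normalisation and the lack of detection calls limit all values.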

Other observations

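Some of the FGF genes lie close together in the genome. In the RefSeq order of coding genes (GRCm38.p6), Fgf6 and Fgf23 are neighbours on chromosome 6 with 0 coding genes between them. Fgf6 was lower (6.40 against 3.72, a bound) and Fgf23 higher (6.56 against 6.98) in the double knockout. Because Fgf6 was measured through the wild-type array alone, its direction was fixed, so the pair is no free contrast. Fgf3, Fgf4 and Fgf15 are neighbours on chromosome 7, and all 3 were below the floor on both arrays. Fgf2 and Spry1 lie on chromosome 3 with 2 coding genes between them, and their differences were -0.17 and -0.15. Spry4 and Fgf1 lie on chromosome 18, also with 2 coding genes between them, and their differences were in opposite directions, -0.36 and 0.19. No explanation for these values was tested.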
